A study of Mus musculus with 8 samples.

Results

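Injection of a recombinant adeno-associated virus (rAAV) into the hippocampus can be followed by entry of lymphocytes into the tissue, and polyA RNA sequencing of whole hippocampus records the transcripts of such cells beside those of neurons and glia. The genes described here are 10 transcripts of T cells and cytotoxic lymphocytes, Cd3e, Cd3g, Cd3d, Cd8a, Cd8b1, Gzma, Nkg7, Ccl5, Trbc2 and Cd2, chosen by symbol out of 40659 gene identifiers in the count table. All 10 had at least 1 read in each of the 8 libraries, and 9 of them (all but Gzma) were among the 17252 genes that passed the filter on low counts. The mice were male wild type C57BL/6JRj animals that received a stereotactic injection into the dorsal and ventral hippocampus. The study's results text gives 7 or 8 weeks of age for this surgery. Its methods place tissue collection 4 weeks later, while the labels give postnatal week 12 or 13 for the tissue. In 4 animals the virus carried a hairpin for miR-708-5p (hp708) and in 4 it carried a control hairpin (hpCTL). In hp708 the hairpin sits behind EGFP under the human synapsin promoter, which is active in neurons, so lymphocytes are not the cells in which the hairpin is meant to be made. Every animal received a virus, and no library from an uninjected animal was analysed here. PolyA libraries do not measure the mature miRNA, so the group labels could not be checked on miR-708-5p itself.

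As background, T cells recognise peptides held by MHC molecules through the T cell receptor, whose alpha and beta chains bind antigen while the CD3 gamma, delta and epsilon chains and the zeta chain carry the signal inward. CD8 is the co-receptor of T cells that read MHC class I, and these cells, like natural killer cells, kill targets by releasing granules with granzymes and perforin. The healthy brain holds few T cells, and after viral exposure CD8 T cells can enter and remain as resident cells, drawn by chemokines that interferon-gamma induces.

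The sequences below set out what the hairpin of hp708 is meant to produce and the one matching stretch found among the 10 genes. The capitals in miR-708-5p mark its seed, bases 2 to 8 of 23 bases counted from the 5′ end; the mouse miRNA lies at chr7:96249450-96249472 on the plus strand (GRCm38.p6, RefSeq). The capitals in Cd2 mark the complement of that seed, AGCTCCT, which starts at base 100 of the 371 bases after its stop codon (chr3:101183480-101183486, minus strand, GRCm39).
miR-708-5p: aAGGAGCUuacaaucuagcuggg
Cd2 3′-UTR: tcagtggcgctccaAGCTCCTcctccacct
Either these letters or GCTCCTA, the match to bases 2 to 7 followed by an A, were searched on the transcript strand of the longest annotated 3′-UTR of each gene. Of the 10 genes 1 held a match, beside 3927 of 14811 tested genes with a 3′-UTR (26.5%). Promoter sequences (250 bases before to 50 after the start, RefSeq, GRCm38.p6) were at hand for 6 of the 10 genes, namely Cd3e, Cd3g, Cd3d, Cd8a, Gzma and Nkg7. On both strands they were searched for short core motifs of factors known from T cells: TGTGGT of RUNX factors, CAGGAAG of ETS factors, GGTGTGA of T-box factors and TGANTCA of AP-1. As examples, 1 window for each motif found is shown with the motif, or its complement, in capitals.
Cd3e, ETS, minus strand, chr9:45009610-45009639: tcccctctacaCTTCCTGtgtggggttcag
Gzma, RUNX, minus strand, chr13:113101014-113101043: gagaagaacaaaACCACAtcctttgcactc
Nkg7, T-box, plus strand, chr7:43437114-43437143: ggggtagggaaGGTGTGAgaagaatcagat
The RUNX letters were in 2 of the 6 promoters (Gzma and Nkg7; 16.8% of 32851 promoters), the ETS letters in 2 (Cd3e and Nkg7; 13.3%), the T-box letters in 1 (Nkg7; 4.0%) and the AP-1 letters in 0 (7.8%). A match is a description of the letters and not a site of binding.

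The libraries held 22606824 to 28462428 counted reads. Values are given as CPM, counts scaled by library size after TMM normalisation, and 3 counts, taken as the floor, correspond to 0.107 to 0.131 CPM. The library labelled hp708 replicate 1 needs a caution, since its animal number appears among the controls in the source data of a qPCR experiment of the study. It kept its label here. The ratio of summed CPM, list medians and the fitted changes of several genes are given with and without it. Ranges, proportions, spreads within groups and correlations are given only with it. Fewer cells of a type and less RNA per cell cannot be told apart in bulk tissue, which holds for every gene below. As a check of the name, the T cell markers Trac, at 7.28 CPM on average, and Cd4, at 8.02 CPM, were detected in all 8 libraries beside the 10 genes. The natural killer markers Ncr1 and Klrb1c summed to few reads, with 0 to 6 and 0 to 10 counts per library, and the perforin gene Prf1 had 2 to 15.

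Per exon length, Ccl5 was the highest of the 10 genes, at 22.9 RPKM (CPM per kilobase of exon) on average over the 8 libraries, and Cd8b1 the lowest, at 0.22. Trbc2 followed Ccl5 at 6.89 RPKM, and Ccl5 was above it in 7 of 8 libraries. Nkg7 (1.75 RPKM) and Cd2 (1.69 RPKM) did not separate, with Nkg7 higher in 2 of 8 libraries, while Cd2 was above Cd3g (1.46 RPKM) in 7. Cd3d (0.952 RPKM) and Cd3e (0.94 RPKM) did not separate either, with Cd3d higher in 5 of 8 libraries, although both were below Cd3g. At the lower end, Cd8a (0.349 RPKM) was above Gzma (0.237 RPKM) in 4 of 8 libraries, and Gzma was above Cd8b1 in 5. Lengths are of all annotated exons of a gene together, so a gene with many alternative exons has a lower value per length than its main transcript would give.

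The 3 CD3 genes lie beside each other on chromosome 9 of GRCm39, Cd3g at chr9:44880870-44891735, Cd3d at chr9:44893083-44899173 and Cd3e at chr9:44910037-44920925. Cd3e, the epsilon chain of the receptor complex, was at 2.07, 4.24, 6.07 and 3.49 CPM in hpCTL replicates 1 to 4 and at 1.52, 4.48, 1.88 and 6.94 CPM in hp708 replicates 1 to 4. Both the lowest and the highest of these 8 values belonged to hp708, a 4.56-fold range (95% interval from counting alone, 3.23 to 6.55), and the hpCTL values lay between them. Cd3g, the gamma chain, was at 2.61, 5.07, 8.00 and 5.11 CPM in hpCTL and at 2.47, 4.39, 1.79 and 8.92 CPM in hp708. Cd3d, the delta chain, was at 1.54, 2.97, 3.82 and 2.78 CPM in hpCTL and at 1.12, 2.44, 1.32 and 3.72 CPM in hp708. In all 3 genes hp708 replicates 1 and 3 were the lowest libraries, hpCTL replicate 1 was the third lowest, and hp708 replicate 4 and hpCTL replicate 3 were the highest pair, so the groups overlapped. On 135 bases, exons of Cd3e overlap an antisense gene, and whether reads were counted by strand is not given in the sources used here. Some genes of the lists below overlap antisense genes on more of their exon bases. These include Cxcl16 (4345 of 5123 bases), Cd247 (3007 of 5887), Irf1 (2086 of 4678) and Sh2d1a (1465 of 5870), so the same caution holds for them.

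Trbc2, the constant region of the receptor beta chain (chr6:41523664-41525286), was at 2.96, 5.68, 7.67 and 3.72 CPM in hpCTL and at 2.57, 5.39, 2.05 and 8.10 CPM in hp708. Its near-identical neighbour Trbc1, at 2.71 CPM on average, can share reads with it, so the split between the 2 genes is uncertain. The order of the libraries was again close to that of Cd3e, with hp708 replicate 3 lowest and hp708 replicate 4 highest. Cd2, an adhesion receptor of T and natural killer cells (chr3:101183215-101195458), was at 1.54, 3.37, 5.66 and 3.42 CPM in hpCTL and at 1.63, 3.87, 1.36 and 5.45 CPM in hp708. For Cd2, the gene with the seed match shown above, hpCTL replicate 1 ranked below hp708 replicate 1, and the group means were 3.5 ± 1.69 CPM in hpCTL and 3.08 ± 1.94 CPM in hp708 (SD, n = 4 each).

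Cd8a and Cd8b1 encode the alpha and beta chains of the CD8 co-receptor and also lie close together, at chr6:71350411-71356157 and chr6:71299772-71315087. Cd8a was at 0.714, 1.92, 1.56 and 1.54 CPM in hpCTL and at 0.218, 1.35, 0.512 and 2.35 CPM in hp708. The low value in hp708 replicate 1 rests on 6 reads and the high one in hp708 replicate 4 on 57, a 10.8-fold range with a counting interval of 4.68 to 30.7. Cd8b1 was counted with 6, 19, 9 and 27 reads in hpCTL and with 2, 1, 11 and 21 in hp708, or 0.0435 to 1.01 CPM. Its values in hp708 replicates 1 and 2 were below the floor of 3 counts. Here hp708 replicate 2, which was in the middle for Cd8a, was the lowest library with a single read, and the 23.3-fold range had a counting interval of 3.84 to 955. At this depth the order of the libraries for Cd8b1 is set by few reads.

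Gzma, a granzyme of cytotoxic granules (chr13:113230355-113237524), summed to 71 reads over the 8 libraries and did not pass the filter on low counts. Its reads were 9, 20, 13 and 6 in hpCTL and 3, 14, 3 and 3 in hp708, so that 3 hp708 libraries were at the floor of 3 counts and hp708 replicate 2 was not. In CPM these were 0.321, 0.875, 0.533 and 0.225 in hpCTL and 0.109, 0.609, 0.128 and 0.124 in hp708. Unlike the CD3 genes, Gzma was near its lowest in hp708 replicate 4. Nkg7, a membrane protein of cytotoxic granules (chr7:43086497-43087678), was at 0.643, 1.36, 2.17 and 2.78 CPM in hpCTL and at 0.58, 1.22, 0.512 and 3.64 CPM in hp708, with the same lowest and highest libraries as Cd3g.

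Ccl5 (chr11:83416602-83425942), a chemokine made in large amounts by memory CD8 T cells and natural killer cells and also by other activated cells, varied widely between libraries. It was at 10.4, 24.8, 39.5 and 36.6 CPM in hpCTL and at 3.15, 27.7, 8.53 and 37.2 CPM in hp708. The lowest value, from 87 reads in hp708 replicate 1, and the highest, from 963 reads in hpCTL replicate 3, gave a 12.5-fold range with a counting interval of 10.1 to 15.8. Of all reads of the 10 genes, Ccl5 took 23.5% in hp708 replicate 1, 60.3% in hpCTL replicate 4 and 45.1% to 53.8% in the other 6 libraries.

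**Figure D1:**
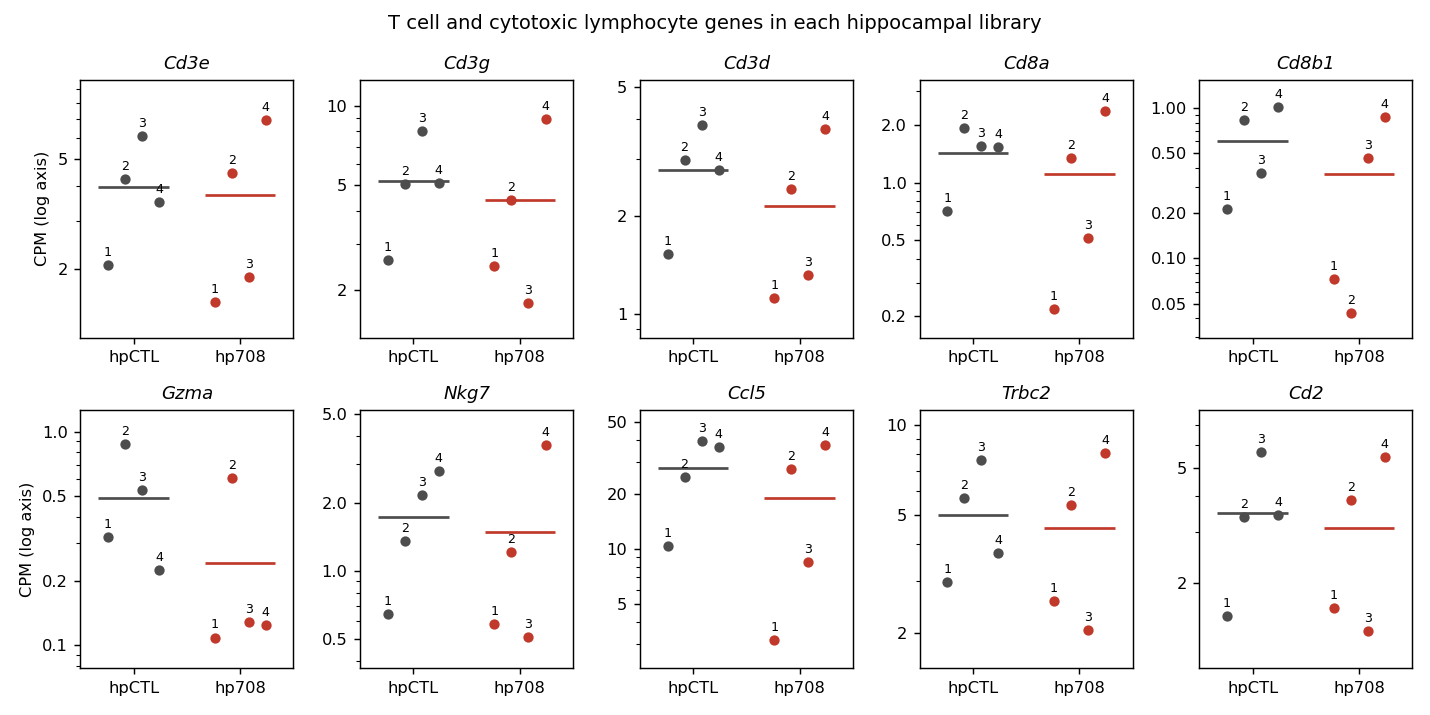
CPM (log axis; the range differs between panels) of the 10 genes in each library, with points numbered by replicate and a line at the group mean. In the panels of Cd3e, Cd3g, Trbc2, Nkg7 and Cd8a the 4 hp708 points span the hpCTL points, with hp708 replicates 1 and 3 low and hp708 replicate 4 high.

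Summed over the 10 genes, the libraries were at 22.9, 51.2, 75.4 and 60.7 CPM in hpCTL and at 13.4, 51.4, 18.5 and 77.3 CPM in hp708. The group means were 52.5 ± 22.1 CPM and 40.2 ± 29.9 CPM (SD, n = 4 each), a ratio of hp708 to hpCTL of 0.765, which became 0.934 without hp708 replicate 1. Without Ccl5 the sums were 24.7 ± 9.55 CPM and 21.1 ± 14.2 CPM, with a ratio of 0.852. The difference between the group means was thus smaller than the spread within either group.

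Within groups the 10 genes spread far more than most genes. The SD of log2 CPM within groups, pooled over both groups, had a median of 0.85 for the 9 genes that passed the filter and of 0.18 for all tested genes. Each of the 10 stood at or above the 93.5th percentile of the tested genes, with Ccl5 at the 99th. Library hp708 replicate 1 was the lowest for 5 of the 10 genes, hp708 replicate 3 for 4 and hp708 replicate 2 for 1, whereas these libraries were the lowest for 10.1%, 13.9% and 16.6% of all tested genes. The highest library was hp708 replicate 4 for 5 genes and hpCTL replicate 3 for 3, beside 15.2% and 7.4% of all tested genes.

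Set against Cd3e in the same library, the other receptor genes and Cd2 kept nearly constant proportions. The ratio of reads to Cd3e ranged 1.70-fold over the 8 libraries for Cd3g, 1.48-fold for Cd3d, 1.59-fold for Trbc2 and 1.47-fold for Cd2. Nkg7 ranged 2.93-fold and Cd8a 3.17-fold against Cd3e, with the lowest ratio of Cd8a, 0.143, in hp708 replicate 1. Ccl5 ranged 5.06-fold, from 2.07 reads per Cd3e read in hp708 replicate 1 to 10.5 in hpCTL replicate 4. The low-count genes Gzma and Cd8b1 ranged 11.6-fold and 29.9-fold. Over the 8 libraries, Pearson's r between pairs of the 9 tested genes had a median of 0.89 and ranged from 0.81 to 0.98 in the 28 pairs without Cd8b1 and from 0.27 to 0.59 in the 8 pairs with it. These points share their libraries and are a description.

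**Figure D2:**
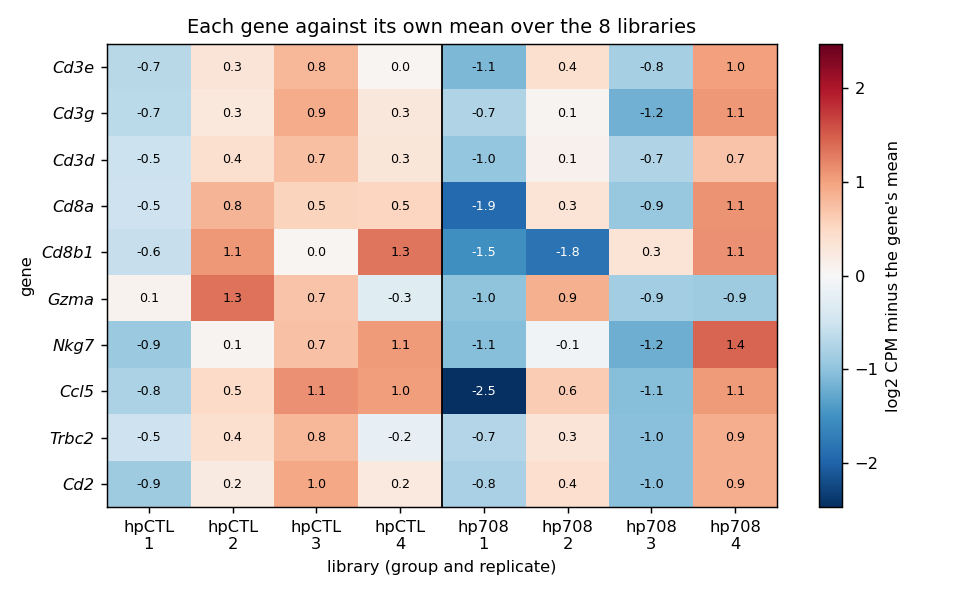
Each gene (rows) in each library (columns) as log2 CPM minus the gene's own mean over the 8 libraries; red is above and blue below that mean. The columns of hp708 replicates 1 and 3 and of hpCTL replicate 1 are mostly blue and that of hp708 replicate 4 is red except for Gzma, and the largest single departure is Ccl5 in hp708 replicate 1 (−2.47).

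The design asks whether these transcripts differ between hp708 and hpCTL. All 9 tested genes had a lower fitted level in hp708, and 0 of them passed at a false discovery rate (FDR) below 0.05 in the quasi-likelihood test of edgeR, fitted with 3 surrogate variables that stand for unlabelled variation between libraries estimated from all genes. Over all 17252 tested genes that call was made for 0.0058%, a single gene, and 53.2% had a lower fitted level. At an unadjusted p below 0.05, 5 of the 9 were lower (Ccl5, Cd3d, Cd8a, Cd3e and Cd2) and 0 higher, beside 4.87% of all tested genes lower and 2.82% higher. Their median log2 fold change was −0.79, and that of all tested genes −0.01.

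Ccl5 had the largest fitted change, a log2 fold change of −1.64 ± 0.27 (SE) with an unadjusted p of 0.000472 and an adjusted p of 0.294. For Cd8a it was −1.30 ± 0.38 (adjusted p = 0.511), for Cd8b1 −1.19 ± 0.71 (adjusted p = 0.744) and for Nkg7 −0.84 ± 0.48 (adjusted p = 0.735). The receptor genes and Cd2 lay closer together, at −0.79 ± 0.21 for Cd3d, −0.70 ± 0.33 for Cd3g, −0.69 ± 0.23 for Cd3e, −0.67 ± 0.27 for Cd2 and −0.58 ± 0.30 for Trbc2, with adjusted p from 0.497 to 0.712. Without surrogate variables the fitted changes shrank to between −0.74 (Cd8b1) and −0.10 (Cd3e), with −0.54 ± 0.66 for Ccl5, a median of −0.24 and an adjusted p of 0.999 for each of the 9 genes. In that fit 52.9% of all tested genes had a lower fitted level, and 0 of the 9 had an unadjusted p below 0.05, beside 0.951% of all tested genes lower at that p. The 3 surrogate variables took up 57% of the variance of the mean standardised level of the 9 genes, and a median of 67% over all tested genes, and with them the fit has 5 coefficients and leaves 3 residual degrees of freedom.

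Other tests of the same counts with 3 surrogate variables called 1 of the 9 genes, Ccl5, with an adjusted p of 5.89e-06 in edgeR's likelihood ratio test and of 0.00141 in DESeq2, and so did the quasi-likelihood fit without the filter on low counts (adjusted p = 0.0115). Over all tested genes the share called lower in these 3 tests was 0.643%, 0.464% and 0.0406%. The values also rested on single libraries. Without hp708 replicate 1, the library with the doubtful label, the fit with surrogate variables gave a log2 fold change of −0.25 ± 0.16 for Ccl5 and 0.07 ± 0.31 for Cd3e, a median of −0.16 over the 10 genes, all of which then passed the filter, and 0 genes at an unadjusted p below 0.05 (6.72% of all tested genes lower). Without hp708 replicate 4 the median was −1.38 and 9 of 10 genes had an unadjusted p below 0.05 (5.71% of all tested genes lower), with 0 past the FDR threshold. Without hpCTL replicate 3, 3 of 9 genes were lower at that p, beside 2.08% of all tested genes. Ccl5 passed the FDR threshold without hpCTL replicate 4, at −1.20 ± 0.12 and an adjusted p of 0.0383 (0.0344% of all tested genes called lower).

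**Figure D3:**
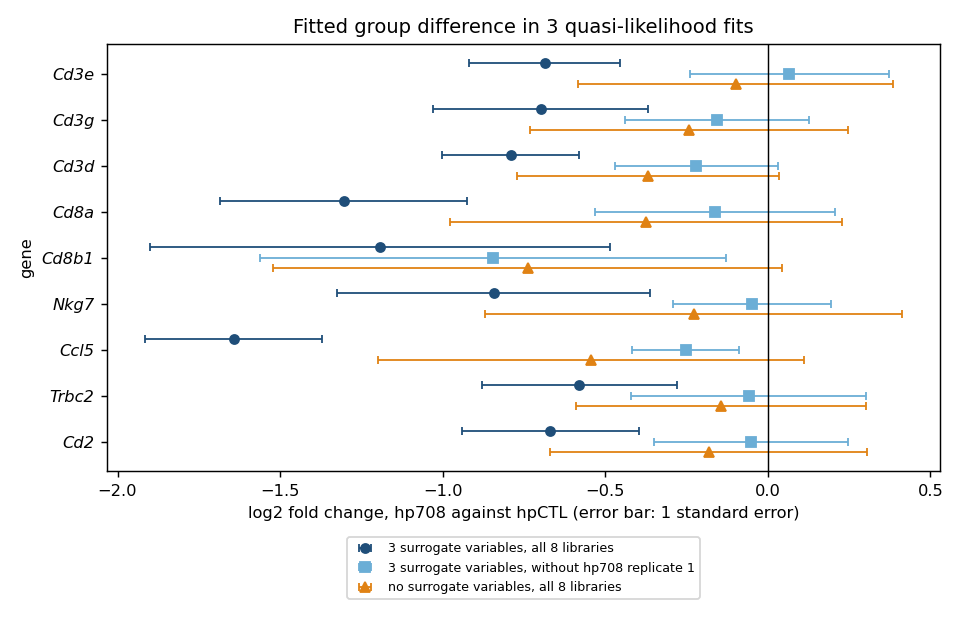
Log2 fold change of hp708 against hpCTL for the 9 tested genes (error bars, 1 standard error) in the quasi-likelihood fit with 3 surrogate variables (circles), the same fit without hp708 replicate 1 (squares) and the fit without surrogate variables (triangles). The circles lie between −1.64 and −0.58, and the squares and triangles nearer to 0.

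Compared directly between libraries, the groups of each of the 10 genes overlapped, beside 1.51% of all tested genes whose groups did not. Without hp708 replicate 2 those of 1 gene, Gzma, did not overlap, beside 6.17% of all tested genes. Exact two-sided permutation tests on log2 CPM, whose smallest possible p is 0.0286 with 4 libraries against 4, gave p from 0.2 for Gzma to 0.771 for Cd2, and 0.343 for Ccl5. In a fit without the filter on low counts, Gzma had a log2 fold change of −1.95 ± 0.59 and an adjusted p of 0.582. Without hp708 replicate 1, where Gzma passed the filter, the change was −1.27 ± 0.69 with surrogate variables and −0.74 ± 0.70 without them.

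Other genes of the T cell receptor complex and its signalling mostly moved between libraries like the 10. Of 26 such genes 25 were tested, and over the 8 libraries their r with the mean standardised level of the 9 genes had a median of 0.91. In hp708 14 were lower and 1 higher at an unadjusted p below 0.05, 0 passed at an FDR below 0.05 (3 in the likelihood ratio test and 1 in DESeq2), and the median log2 fold change was −0.52 with surrogate variables and −0.12 without. Without surrogate variables 2 had an unadjusted p below 0.05, Sh2d1a and Tox. The 14 were Cd247 and Trac of the receptor complex, the co-receptor Cd4, the costimulatory Cd27, Cd28 and Icos, the inhibitory Ctla4, Pdcd1, Lag3 and Tigit, the regulatory T cell factor Foxp3, and Cd5, Sh2d1a and Tox. Lag3, at 37.1 CPM on average, was well above Trac at 7.28 CPM, and which cells made it was not tested. Foxp3 was at 0.5, 1.40, 1.68 and 2.03 CPM in hpCTL and at 0.326, 1.00, 0.426 and 1.20 CPM in hp708, with a log2 fold change of −1.38 ± 0.28 (adjusted p = 0.362). That of Foxp3 was −0.93 ± 0.51 without surrogate variables and −0.73 ± 0.27 without hp708 replicate 1. With hp708 replicate 1 left out the list had 3 genes lower and 1 higher at an unadjusted p below 0.05, with a median of 0.02. In that fit 1171 of all 17425 tested genes were lower and 948 higher at that p. Without hp708 replicate 4 the list had 21 lower and a median of −0.93, and without hpCTL replicate 3 it had 7 lower. Lcp2, an adaptor of receptor signalling and the third most abundant gene of the list, was at −0.31 ± 0.15 (adjusted p = 0.701).

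Sh2d1a, the adaptor SAP of T and natural killer cells, was 1 of the 25 tested genes of that list with groups that did not overlap, beside 1.51% of all tested genes. It had 14, 14, 21 and 12 reads in hpCTL and 7, 3, 6 and 6 in hp708, or 0.45 to 0.861 CPM against 0.13 to 0.256 CPM. Its log2 fold change was −1.42 with and without surrogate variables (adjusted p = 0.509 with them). Its r with the 9 genes was 0.31, so it did not share their order of libraries. Tox, a factor of exhausted and developing T cells that is also transcribed in neurons, was at −0.51 ± 0.15 (adjusted p = 0.511), or −1.01 ± 0.15 without hp708 replicate 1, with an r of −0.10. The gene higher in hp708 was Bcl11b, a T lineage factor that hippocampal neurons also express, at 138 CPM on average and a log2 fold change of 0.14 ± 0.05 (adjusted p = 0.595).

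Of 22 further genes of cytotoxic granules and natural killer receptors 14 were tested, 5 were lower at an unadjusted p below 0.05 and 0 were called at the FDR threshold (2 in the likelihood ratio test and 1 in DESeq2). The median of their log2 fold changes was −0.69, or −0.12 without surrogate variables, where 0 were lower at that p. The 5 were the granzyme Gzmb, the cathepsin inhibitor Cst7, the cytokine receptor chain Il2rb and the transcription factors Tbx21 and Runx3. Gzmb had 6, 35, 23 and 13 reads in hpCTL and 2, 19, 2 and 10 in hp708, with a log2 fold change of −2.48 ± 0.57 (adjusted p = 0.387), which was −1.18 ± 0.77 without surrogate variables and −1.18 ± 0.63 without hp708 replicate 1. Like Gzma it was highest in hpCTL replicate 2, and like the CD3 genes lowest in hp708 replicates 1 and 3. Cst7, which microglia can also express, was at 4.18, 9.27, 13.4 and 14.3 CPM in hpCTL and 1.81, 11.7, 2.98 and 14.3 CPM in hp708, with a log2 fold change of −1.39 ± 0.29 (adjusted p = 0.382). For Cst7 it was −0.42 ± 0.62 without surrogate variables and −0.17 ± 0.19 without hp708 replicate 1. Ctsw, a cathepsin of cytotoxic cells, was at −0.81 ± 0.36 (adjusted p = 0.668). Leaving out hp708 replicate 1, 0 of the 14 had an unadjusted p below 0.05 and the median was −0.01. Leaving out hpCTL replicate 4, 3 were lower at that p, beside 3.83% of all tested genes, and leaving out hp708 replicate 4 the median was −1.14. The interferon-gamma gene Ifng itself had 3 to 14 reads per library. The 4 constant-region genes of the gamma-delta receptor did not pass the filter, with 1 to 20 reads in all per library.

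Receptors and adhesion molecules by which T cells enter and stay in tissue gave 14 tested genes of 16, with 5 lower at an unadjusted p below 0.05 and 0 called (1 in the likelihood ratio test and 0 in DESeq2). These were Cd69 and Itgae, which mark tissue-resident T cells, and the integrins Itgal, Itgb2 and Itgb7. Cd69 was at 0.607, 2.19, 2.58 and 2.29 CPM in hpCTL and at 0.363, 2.09, 0.682 and 1.57 CPM in hp708, a log2 fold change of −1.40 ± 0.21 with an adjusted p of 0.268. The change of Cd69 was −0.71 ± 0.56 without surrogate variables and −0.55 ± 0.27 without hp708 replicate 1. Without surrogate variables 0 genes of the list had an unadjusted p below 0.05. The 3 most abundant genes of the list, S1pr1, Selplg and Itga4, had log2 fold changes of −0.12 ± 0.09, −0.15 ± 0.07 and 0.02 ± 0.10 (adjusted p from 0.697 to 0.984). Without hp708 replicate 1 this list had 1 gene lower and 1 higher at an unadjusted p below 0.05, beside 1171 and 948 of all 17425 tested genes. It had 2 lower without hpCTL replicate 3 and 9 lower without hp708 replicate 4. The medians in these fits were −0.05, −0.34 and −0.79, beside −0.41 with all libraries.

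Among chemoattractants and vascular ligands of T cells 13 of 16 genes were tested, and 6 were lower at an unadjusted p below 0.05, namely Cxcl9, Cxcl10, Cxcl16, Ccl2, Ccl12 and Icam1, with 0 called (3 in the likelihood ratio test and 3 in DESeq2). Cxcl9, a ligand of CXCR3 that interferon-gamma induces, was at 10.6, 36.2, 42.6 and 46.2 CPM in hpCTL and at 6.74, 30.8, 8.65 and 43.8 CPM in hp708. The low libraries were the same as for the CD3 genes, hp708 replicates 1 and 3 and hpCTL replicate 1. Its log2 fold change was −1.40 ± 0.24 (adjusted p = 0.294), and that of Cxcl10, another CXCR3 ligand, −0.93 ± 0.16 (adjusted p = 0.294). Without surrogate variables they were −0.59 ± 0.61 and −0.37 ± 0.49, and without hp708 replicate 1 −0.42 ± 0.19 and −0.22 ± 0.15. The median of the list was −0.54 with surrogate variables and −0.03 without, where 0 genes had an unadjusted p below 0.05. Cxcl12 and Vcam1, the 2 most abundant genes of the list, were at 0.01 ± 0.08 (adjusted p = 0.99) and −0.17 ± 0.15 (adjusted p = 0.827). In the fit without hp708 replicate 1, 1 gene of the list had an unadjusted p below 0.05 and the median was −0.01. The count was 4 without hpCTL replicate 4 and 9, with a median of −0.93, without hp708 replicate 4.

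Genes of MHC class I presentation and of the response to interferon-gamma, which other cells also express, were on average low in the same libraries, hpCTL replicate 1 and hp708 replicates 1 and 3. All 13 interferon-gamma response genes, among them Irf1, Gbp2 and Irgm1, and 11 of 12 MHC class I genes, among them B2m, H2-K1 and Tap1, were lower in hp708 at an unadjusted p below 0.05. At the FDR threshold 0 were called, against 11 and 8 in the likelihood ratio test and 8 and 4 in DESeq2, tests that called 0.643% and 0.464% of all tested genes lower. Their median log2 fold changes were −0.75 and −0.66 with surrogate variables and −0.25 and −0.22 without, and in the fit without them 0 of 13 and 0 of 12 had an unadjusted p below 0.05. Over the libraries their r with the mean level of the 9 T cell genes ranged from 0.84 to 0.95 and from 0.71 to 0.96. Summed, the interferon-gamma response genes ranged 3.58-fold and the MHC class I genes 2.84-fold, each lowest in hp708 replicate 1 and highest in hpCTL replicate 4. Without hp708 replicate 1 the medians were −0.14 and −0.06, and 2 of 13 and 1 of 12 had an unadjusted p below 0.05.

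Among markers of other cells in the tissue, the B cell and plasma cell list ranged 2.93-fold in summed CPM (2122 to 6051 in hpCTL, 2063 to 5052 in hp708), with 6 of 9 genes lower at an unadjusted p below 0.05, and was carried by Igkc, Ighm and Jchain, while Ms4a1 was at 0.706 CPM on average. Microglial markers ranged 1.45-fold (555 to 720 CPM in hpCTL, 496 to 720 in hp708), with 5 of 8 lower at that p. Their r had a median of 0.89. Border macrophage and monocyte markers ranged 2.61-fold (15.9 to 39.0 and 14.9 to 32.1 CPM; 2 of 6 tested lower) and dendritic cell markers 5.49-fold (259.8 to 1116 and 203.3 to 944.6 CPM; 2 of 6 lower), the latter mostly Cd74 and H2-Ab1. The r of the tested dendritic cell markers ranged from −0.23 for Flt3 to 0.94, with 0.93 for Cd74 and 0.91 for H2-Ab1. The summed range is therefore not that of each marker. The median log2 fold change was −0.57 for B and plasma cells, −0.24 for microglia, −0.72 for border macrophages and −0.96 for dendritic cells, or −0.24, −0.09, −0.25 and −0.17 without surrogate variables. Without hp708 replicate 1 these medians were −0.20, 0.04, −0.14 and −0.03. Without hp708 replicate 4 they were −0.61, −0.33, −0.60 and −1.38. In that fit 7, 5, 4 and 5 genes were lower at an unadjusted p below 0.05, beside 5.71% of all tested genes. The 6 neutrophil markers did not pass the filter, with at most 25 reads in a library and Ly6g at 0 in all 8. Without hp708 replicate 1 the genes lower at that p were 1 for B and plasma cells, 0 for microglia, 2 for border macrophages and 0 for dendritic cells, and without surrogate variables 0 in each of the 4 lists. In each of these lists 0 were called at the FDR threshold (up to 2 in the likelihood ratio test), and their part in the values of the T cell genes was not tested.

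Markers of the choroid plexus differed most widely between animals and did not move in step with the T cell genes. Choroid plexus markers, led by Ttr, ranged 82.9-fold in summed CPM (53.2 to 2060 in hpCTL and 105.6 to 4415 in hp708), were lowest in hpCTL replicate 1 and highest in hp708 replicate 2, and had r between −0.09 and 0.07 with the mean level of the 9 genes. Fibroblast markers of the meninges (139.1 to 298.1 and 114.1 to 358.5 CPM) and red blood cell markers (66.2 to 133.8 and 69.3 to 100.5 CPM) had median r of −0.06 and −0.03. Hippocampal neuron markers ranged 1.17-fold (5430 to 5946 and 5203 to 6097 CPM). In these 4 lists 0 genes had an unadjusted p below 0.05 in the fit with surrogate variables, and all 8 neuron genes had a higher fitted level in hp708, by a median of 0.06 on the log2 scale. Without hp708 replicate 1, 2 choroid plexus genes, 2 fibroblast genes and 1 red blood cell gene were lower and 1 fibroblast gene and 2 neuron genes higher at that p. In that fit 1171 of all 17425 tested genes were lower and 948 higher at that p. Without hpCTL replicate 2 all 7 choroid plexus genes were higher at that p (median 0.89), beside 2.88% of all tested genes, and without hpCTL replicate 3 all 5 red blood cell genes were lower (median −0.61), beside 2.08%. The choroid plexus median was 0.33 with all libraries, −0.09 without hpCTL replicate 1 and −0.36 without hp708 replicate 1, so its sign turned.

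**Figure D4:**
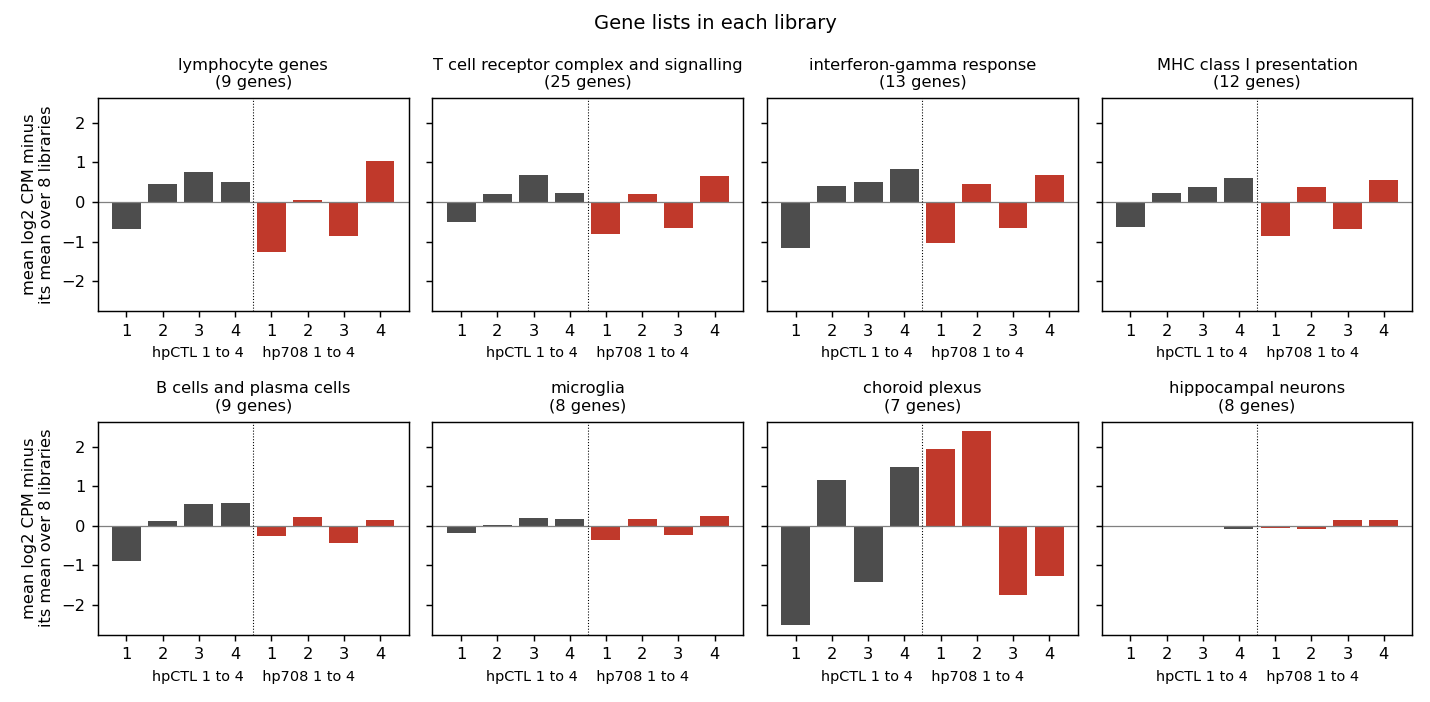
Mean log2 CPM of the tested genes of 8 lists in each library, minus the list's mean over the 8 libraries (bars; hpCTL grey, hp708 red, replicates 1 to 4 in order). The T cell, interferon-gamma, MHC class I, B cell and microglia panels are all lowest in hpCTL replicate 1 and hp708 replicates 1 and 3. The choroid plexus panel follows another order, and the neuron panel stays near 0.

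The tested genes outside the 10 whose levels over the 8 libraries were closest to the mean standardised level of the 9 genes were Ncf4, Dusp2, Il17ra, Casp4, Il10ra, Runx3, Slfn8, Sash3, Spn, Hpse, Gm4841, Cd86, Icos, Cxcl9 and Lcp1, with r from 0.99 for Ncf4 to 0.97 for Lcp1. Ncf4, a subunit of the phagocyte NADPH oxidase, was at 3.0, 5.6, 6.03 and 5.14 CPM in hpCTL and at 2.14, 4.61, 2.86 and 6.44 CPM in hp708. Several of the 15 are genes of leukocytes at large, such as Lcp1, the actin-bundling plastin of blood cells, and Spn, the sialomucin CD43. Icos, Runx3 and Cxcl9 also belong to the lists described above.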

How the data were processed

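PolyA libraries of whole hippocampus from 4 hpCTL and 4 hp708 mice were analysed. The deposited values are raw counts per gene, which the authors made with STAR 2.7.8a on GRCm39 and featureCounts 1.6.4 on GENCODE annotation; strand and multi-mapping settings are not given in the sources used here. Replicates are separate animals, and the labels name no batch. The counts (22606824 to 28462428 per library) were tested with edgeR 4.0.16 (R 4.3.3): filterByExpr, TMM, 3 surrogate variables (sva 3.50.0), quasi-likelihood test, Benjamini-Hochberg over 17252 genes. This follows the study's design, which names the likelihood ratio test in its methods and a quasi-likelihood model in a figure legend. Log2 CPM used a prior count of 2. Positions and exon lengths are from GENCODE on GRCm39, motif windows from RefSeq on GRCm38.p6. Counting intervals (95%) cover counting error only. Named genes are the 10 genes, from each other list its 3 highest by mean CPM and those with an unadjusted p below 0.05, and the 15 nearest in pattern; for some lists, only counts and examples are given, some list genes are not reported here by name, and low-count genes (Ncr1, Klrb1c, Prf1, Ifng, Ly6g, Ms4a1) and Trbc1 were named after their values were seen. The genes and lists were chosen with earlier results of these data known. Alternatives were DESeq2 1.42.0, the likelihood ratio test, other scaling, no filter, no surrogate variables, a replicate block and leaving out each library. The quasi-likelihood, likelihood ratio and DESeq2 fits were tested on simulated counts with known changes, and the other steps were not. Libraries of a group all differed beyond sampling noise (chi-square per degree of freedom from 10.0 to 46.2).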

Additional observations from a re-analysis of the deposited data

Results flagged for a closer look

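Gzma in hp708 replicate 2, at 0.609 CPM from 14 reads, stood apart from the other 3 hp708 libraries at 0.109 to 0.128 CPM, which had 3 reads each. The gap to the nearest value was 0.962 of the group's range, above Dixon's 95% critical value for 4 samples. It was the only one of 52 groups of 4 looked at to do so, where chance gives about 2.6.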

How the results depend on the processing

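Counts of genes called at an FDR below 0.05 depended on the test. Among the 10 T cell and cytotoxic lymphocyte genes the count was 0 in the quasi-likelihood fit and 1, Ccl5 each time, with the likelihood ratio test (adjusted p = 5.89e-06), with DESeq2 (0.00141), both with 3 surrogate variables, and without the filter on low counts (0.0115). It was 0 without surrogate variables in edgeR and DESeq2, with DESeq2's size factors and with the replicate number as a block, and 0 to 1 when each library was left out (1 without hpCTL replicate 4). Over the other lists together the count was 0 in the quasi-likelihood fit, 32 with the likelihood ratio test, 18 with DESeq2 and 2 without the filter, all lower in hp708, beside 1, 127, 96 and 12 of all tested genes in either direction, and 0 with each library left out; these alternatives for the other lists were chosen after seeing the data. The count of the 10 genes whose groups do not overlap was 0 to 1 with each library left out (1, Gzma, without hp708 replicate 2, beside 6.17% of all tested genes). The number of the 10 genes at an unadjusted p below 0.05 ran from 0 without hp708 replicate 1 to 9 without hp708 replicate 4, and their median log2 fold change from −0.16 to −1.38 in the fits with surrogate variables (without them, from −0.03 without hp708 replicate 1 to −0.82 without hp708 replicate 4); the cause was not tested.

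Fitted log2 fold changes kept their negative sign in 7 settings with all 8 libraries for the 9 genes. With a library left out Ccl5 ran from −2.23 to −0.18, Cd8a from −1.92 to −0.02 and Cd8b1 from −2.32 to −0.36. The sign turned for 5 genes, all but 1 time without surrogate variables. Without hpCTL replicate 3 the log2 fold change was then 0.18 for Cd3e, 0.044 for Cd3g, 0.14 for Trbc2 and 0.15 for Cd2, and without hpCTL replicate 4 it was 0.099 for Nkg7. Without hp708 replicate 1 it was 0.17 for Cd3e (0.066 with surrogate variables), 0.0503 for Nkg7, 0.055 for Trbc2 and 0.036 for Cd2, and without hp708 replicate 3 it was 0.12 for Cd3e, 0.022 for Cd3g, 0.0596 for Nkg7, 0.1002 for Trbc2 and 0.067 for Cd2. At the other end, without hp708 replicate 4, the values were −1.14 for Cd3e, −1.22 for Cd3g, −1.0 for Trbc2, −1.11 for Cd2 and −1.55 for Nkg7. The replicate numbers do not pair the animals (correlations of same-numbered deviations from −0.04 to 0.02, none best with its own number), and the replicate block gave 0 called genes and a log2 fold change of −0.88 for Ccl5. The ratio of summed CPM was 0.761 to 0.768 under other scalings and 0.529 (without hp708 replicate 4) to 0.934 (without hp708 replicate 1) with a library left out. Depth limits Gzma and Cd8b1, which had 1 to 27 reads per library.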
